A study of Tachysurus fulvidraco x Tachysurus vachelli with 9 samples.

Results

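The comparison set the posterior intestine of hybrid yellow catfish that had been transported for 16 h (Str) against that of untreated fish (Ctrl), across all genes with a usable level. Of the 26163 genes in the deposited table, 17244 had at least 1 FPKM in at least 3 of the 9 libraries and were tested. FPKM is the number of sequenced fragments per length of transcript and per size of the library, so that levels of genes of different length can be set side by side. The fish of both groups were the same hybrid, with Tachysurus fulvidraco as the mother and Tachysurus vachelli as the father, and carried no engineered allele. Str fish spent the 16 h in closed bags that held water under an oxygen gas phase and lay on a moving shaker. Ctrl fish were the 0-h fish and were not transported. Food was withheld from the day before transport, no feeding on the way is described, and no ages are stated in the labels or methods. By the group times, Str fish were sampled 16 h after Ctrl fish and after more hours without food. If both groups started together, that was at another time of day, but no clock times are given. Transport, fasting and time of day therefore cannot be told apart. Each group had 3 libraries, each from 1 fish, and which bag held which Str fish is unknown here. The third group, fish that recovered after transport, entered the fit only to add to the estimate of the spread between fish. Reads of the hybrid were mapped to the genome of the maternal species alone, so the alleles of both parents were counted together.

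The posterior intestine of a fish takes up the remaining fat, amino acids, ions and water from the gut content and holds many immune cells beneath and within its epithelium. Its absorptive cells are replaced quickly, which needs steady cell division and ribosome production. During confinement and fasting, fish release cortisol and catecholamines, move to stored fuels and raise ammonia in the water, and the gut is among the tissues that meet all of these changes. The best known cortisol and cytokine genes are left aside here, and the description follows metabolism, growth, matrix, transport and immune functions by the pathway (KEGG) and function (GO) terms written in the deposited table.

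Of the 17244 genes, 480 were higher and 534 were lower in Str than in Ctrl at an adjusted p below 0.05 in edgeR's quasi-likelihood F-test with Benjamini-Hochberg adjustment, and these genes are referred to as called. The share called was 5.88% of all tested genes, with 2.78% higher and 3.1% lower. The median log2 fold change over all tested genes was -0.002, and called genes had a median absolute log2 fold change of 2.07, the smallest being 0.85. A log2 fold change is the fitted difference on a doubling scale, Str minus Ctrl, and its standard error (SE) comes from the same fit. The libraries of Str and Ctrl did not overlap in FPKM for 1012 of the 1014 called genes, among them every called gene named here, and for 30.4% of all tested genes. At an unadjusted p below 0.05 the count was 3980 genes. A gene that missed the threshold is not shown to be equal between the groups.

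**Figure D1:**
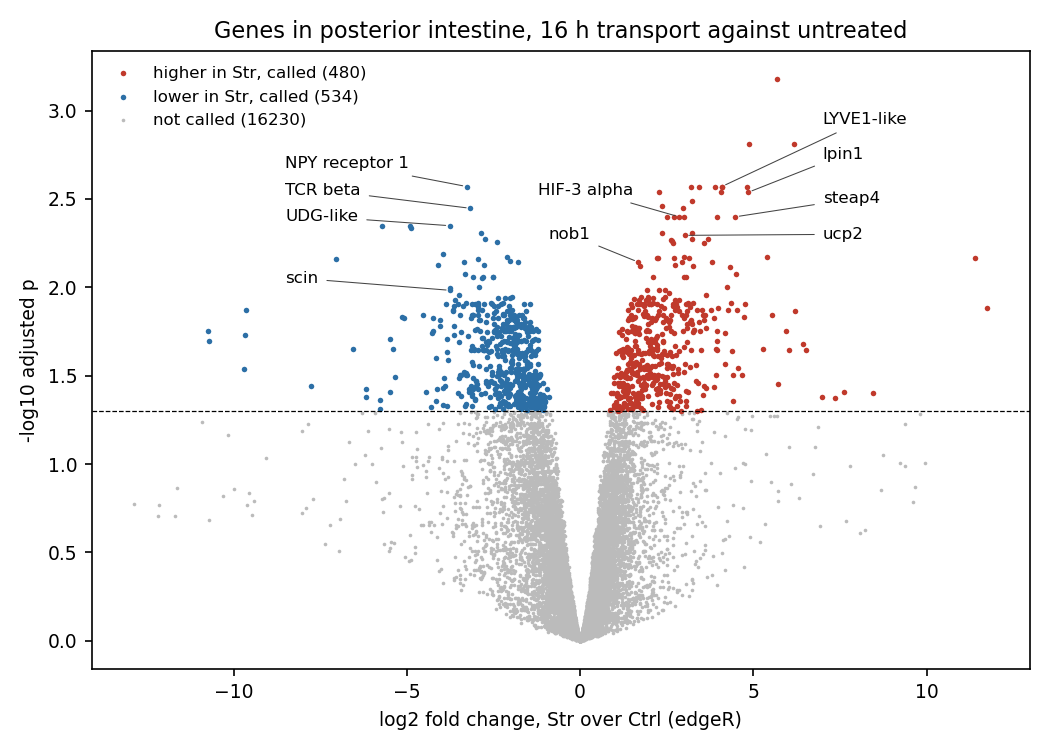
Log2 fold change, Str over Ctrl (x axis), against the -log10 of the adjusted p (y axis), for all tested genes. The 480 genes called higher in Str are in red and the 534 called lower in blue, all above the dashed threshold. The others are in grey below it. Of the called genes, 21 have a fitted change beyond 6 on either side, and these have a group at or near 0, so that their size is not firmly set.

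The 6 libraries held between 48605412 and 60279138 deposited counts in Str and between 60670586 and 63899568 in Ctrl. Over the 9 libraries, the first principal component carried 32.6% of the variance and put the 3 Str libraries at one end. The call count depended on single libraries. It was 238 higher and 200 lower without Str-1, 290 and 322 without Str-2, 90 and 39 without Str-3, 241 and 306 without Ctrl-1, 122 and 158 without Ctrl-2, and 66 and 49 without Ctrl-3. Counts for gene groups below are given in the same order of left-out libraries, the 3 Str libraries first and then the 3 Ctrl libraries. None of the 1014 called genes changed direction in these fits. That outcome was largely fixed in advance, because the groups of 1012 of them did not overlap in FPKM. The call was kept in all 6 fits by 84 genes (55 higher and 29 lower). Libraries also differed in the markers of cell types. The summed level of 15 tested smooth muscle markers was 30291, 5353 and 16448 FPKM in Str and 18043, 8072 and 7622 FPKM in Ctrl, so that Str-2 held the least. The summed level of 17 tested enterocyte markers was 3603, 3562 and 2588 FPKM in Str, against 11250, 5310 and 8216 FPKM in Ctrl, and all Str libraries were below all Ctrl libraries. Of these 17 enterocyte markers, 1 was called lower, the homeobox factor LOC113654968 (CDX-1), the same share as the 5.88% over all genes. Villin (*vil1*) stood at 120, 98 and 99.2 FPKM in Str and 153, 228 and 242 FPKM in Ctrl. The markers had a median log2 fold change of -0.91, while *slc5a1* (0.39) and a keratin 18-like gene (LOC113640639, 3.03) lay above 0 without a call. Without the largest marker, LOC113649980, the sums were 1991, 2628 and 1916 FPKM in Str and 7592, 4203 and 5475 FPKM in Ctrl. The intestine label was checked against these markers, and all 18 enterocyte and 16 smooth muscle markers of the table reached 1 FPKM in at least 1 of the 6 libraries. The 5 tested of 23 exocrine pancreas markers, in contrast, summed to 1.59, 0.57 and 1.28 FPKM in Str and 1.92, 5.33 and 102 FPKM in Ctrl, with Ctrl-3 far above the rest. Pancreatic enzyme genes that were not tested are outside this sum. Some of them were also high in Ctrl-3 alone, such as the elastase gene LOC113655918 with 71.2 FPKM. In bulk tissue, fewer cells of a type and less RNA per cell cannot be told apart.

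**Figure D2:**
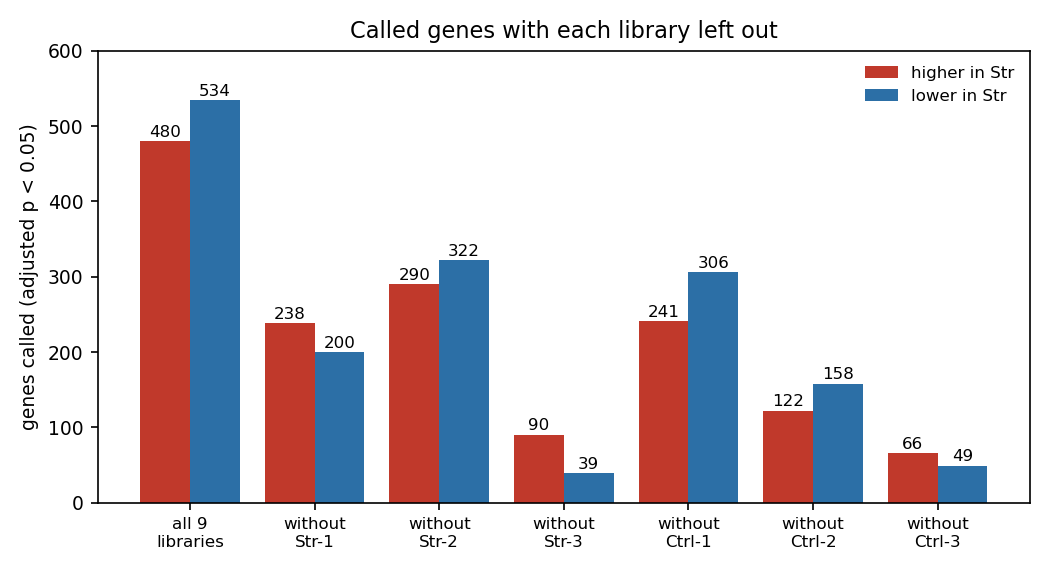
Number of genes called (y axis) higher in Str (red) and lower in Str (blue) with all 9 libraries and with each Str or Ctrl library left out in turn (x axis). The counts are 480 and 534 with all libraries and are smallest without Str-3 (90 and 39) and without Ctrl-3 (66 and 49).

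Seen over the KEGG pathways with at least 10 tested genes, the median was more often below 0 than above it. Of 276 such pathways, the median log2 fold change was below 0 in 180 and above 0 in 96, beside a median of -0.002 over all genes. Pathways share genes, so that these counts are not independent of each other. Over all tested genes the split was nearly even, with 8597 above 0 and 8646 below. It was above 0.5 in 4 pathways, namely synaptic vesicle cycle (0.56), ribosome biogenesis in eukaryotes (0.53), complement and coagulation cascades (0.52) and keratan sulfate synthesis (0.51). It was below -0.5 in 22 pathways, with the lowest medians in allograft rejection (-2.14 over 10 genes) and natural killer cell cytotoxicity (-1.38 over 29 genes), and 39 pathways had no called gene.

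**Figure D3:**
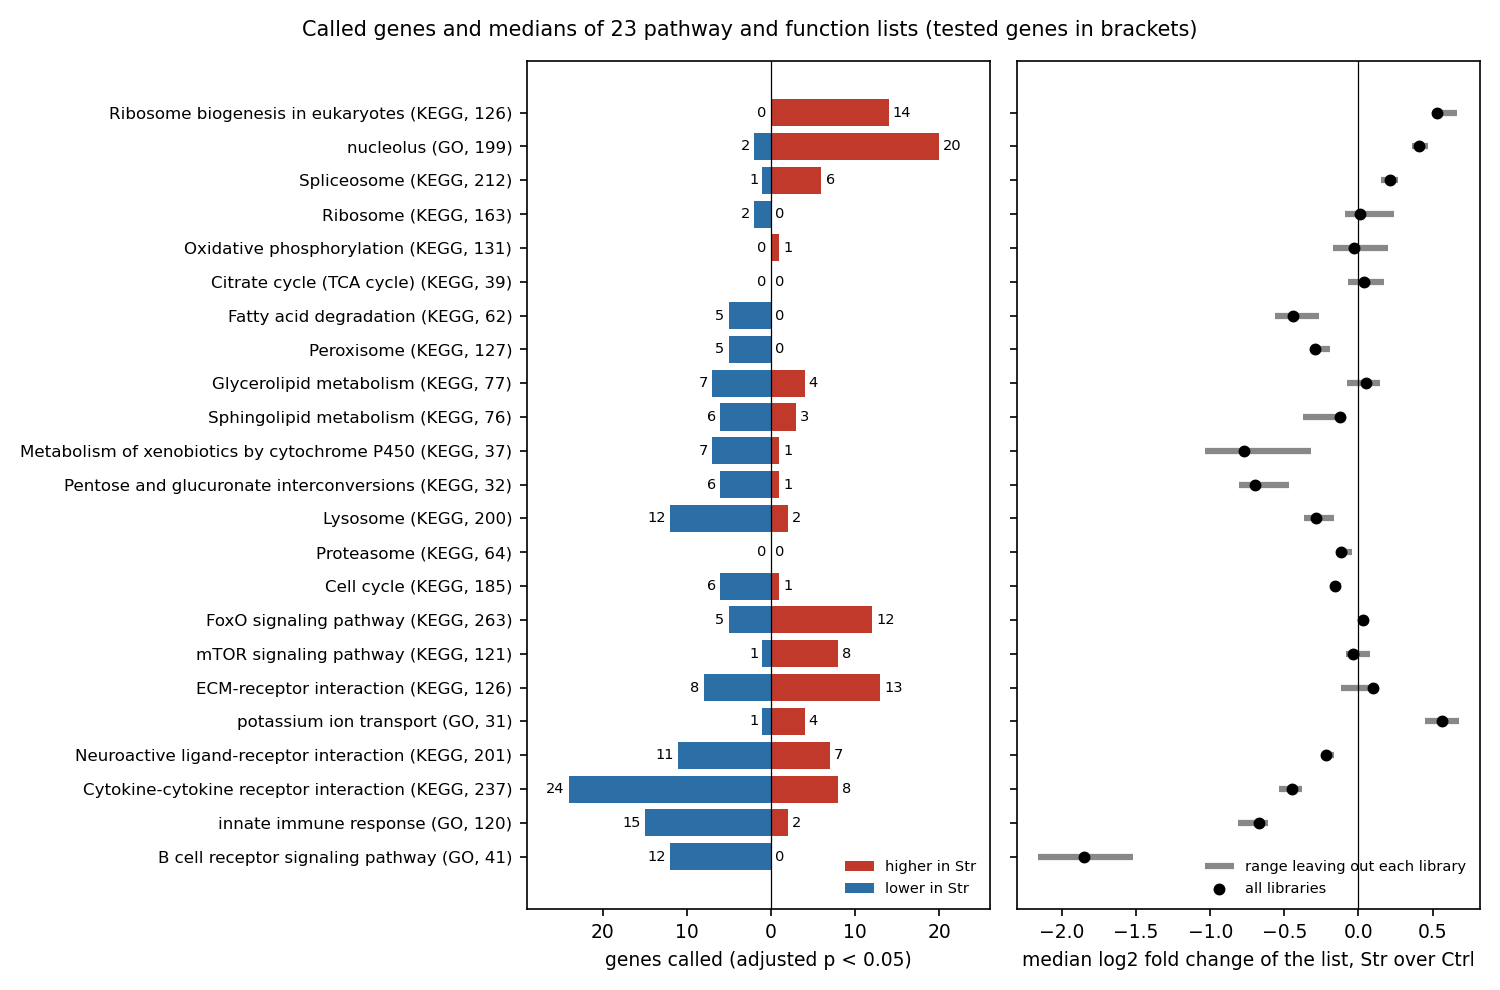
Left, genes called higher (red, to the right) and lower (blue, to the left) in Str in 23 KEGG pathways and GO functions, with the number of tested genes in brackets; right, the median log2 fold change of each list (black point) and its range when each library is left out in turn (grey bar). Ribosome biogenesis has 14 genes higher and none lower, B cell receptor signaling 12 lower and none higher, and the proteasome and citrate cycle have no called gene.

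Among the genes chosen by size, the largest changes belonged to genes of many functions. This choice took called single loci with a known product and at least 10 FPKM on average in the higher group. Cortisol and cytokine genes and genes already described in detail for this comparison were left out of it. *lpin1*, a phosphatidate phosphatase that makes diacylglycerol and also acts as a transcriptional coregulator in mammals, had 16.3, 20.8 and 15.3 FPKM in Str libraries, against 0.442, 1.08 and 0.379 FPKM in Ctrl libraries. Every Str library was well above every Ctrl library, and the log2 fold change was 4.85 (SE 0.47, adjusted p = 0.0029). *steap4*, a metalloreductase of iron and copper, had 37, 21.6 and 38.1 FPKM in Str and 0.787, 1.71 and 2.13 FPKM in Ctrl, a log2 fold change of 4.48 (SE 0.47, adjusted p = 0.00399). A GREB1-like gene, LOC113635037, reached 14.3, 6.56 and 19.6 FPKM in Str and 0.317, 0.347 and 0.201 FPKM in Ctrl, which is the first of the 12 rises chosen by size (log2 fold change 5.55, SE 0.92, adjusted p = 0.0144). Its lowest Str library was still far above the Ctrl libraries. In LOC113659080, a GRB10-like adaptor that dampens insulin receptor signaling in mammals, Str-2 stood out with 539 FPKM beside 67.8 and 114 FPKM in the other Str libraries, against 14.6, 15.8 and 10.7 FPKM in Ctrl. The same library was the high one for the ran-binding protein 3-like gene LOC113638458, with 56.4 FPKM beside 8.5 and 12.5 FPKM in Str, against 0.808, 1.14 and 1.66 FPKM in Ctrl. Both were called, with log2 fold changes of 4.19 and 4.53. Further rises of 4.40 to 4.57 on the log2 scale belonged to a mitochondrial protein phosphatase 1K-like gene (LOC113655431), a carboxypeptidase O-like gene (LOC113649534) and a muscle-related coiled-coil protein gene (LOC113652816).

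Among the falls, *scin* (adseverin, which severs actin filaments) had 2.64, 1.58 and 1.59 FPKM in Str and 21.5, 24.6 and 35.6 FPKM in Ctrl, a log2 fold change of -3.75 (SE 0.53, adjusted p = 0.0104). A 2-ketogluconate reductase-like gene, LOC113647380, had 0.926, 1.94 and 1.03 FPKM in Str, against 14.6, 16.7 and 9.43 FPKM in Ctrl. Its groups were far apart and its call held in every fit with a library left out (log2 fold change -3.34, SE 0.43, adjusted p = 0.0072). A phosphoethanolamine N-methyltransferase 3-like gene, LOC113660046, which belongs to a route to phosphatidylcholine, fell by 3.84 on the log2 scale. The first of the falls chosen by size, LOC113644521 for membrane phospholipase B1 (-6.54), was uneven, since Ctrl-2 had only 1.82 FPKM beside 24.8 and 44 FPKM in the other Ctrl libraries, with 0.52, 0.055 and 0.162 FPKM in Str. Of the 12 rises and 12 falls chosen by size, 7 kept the call in all 6 fits with a library left out, and 10, 9, 16, 9, 13 and 14 lost it with 1 library left out in turn.

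**Figure D4:**
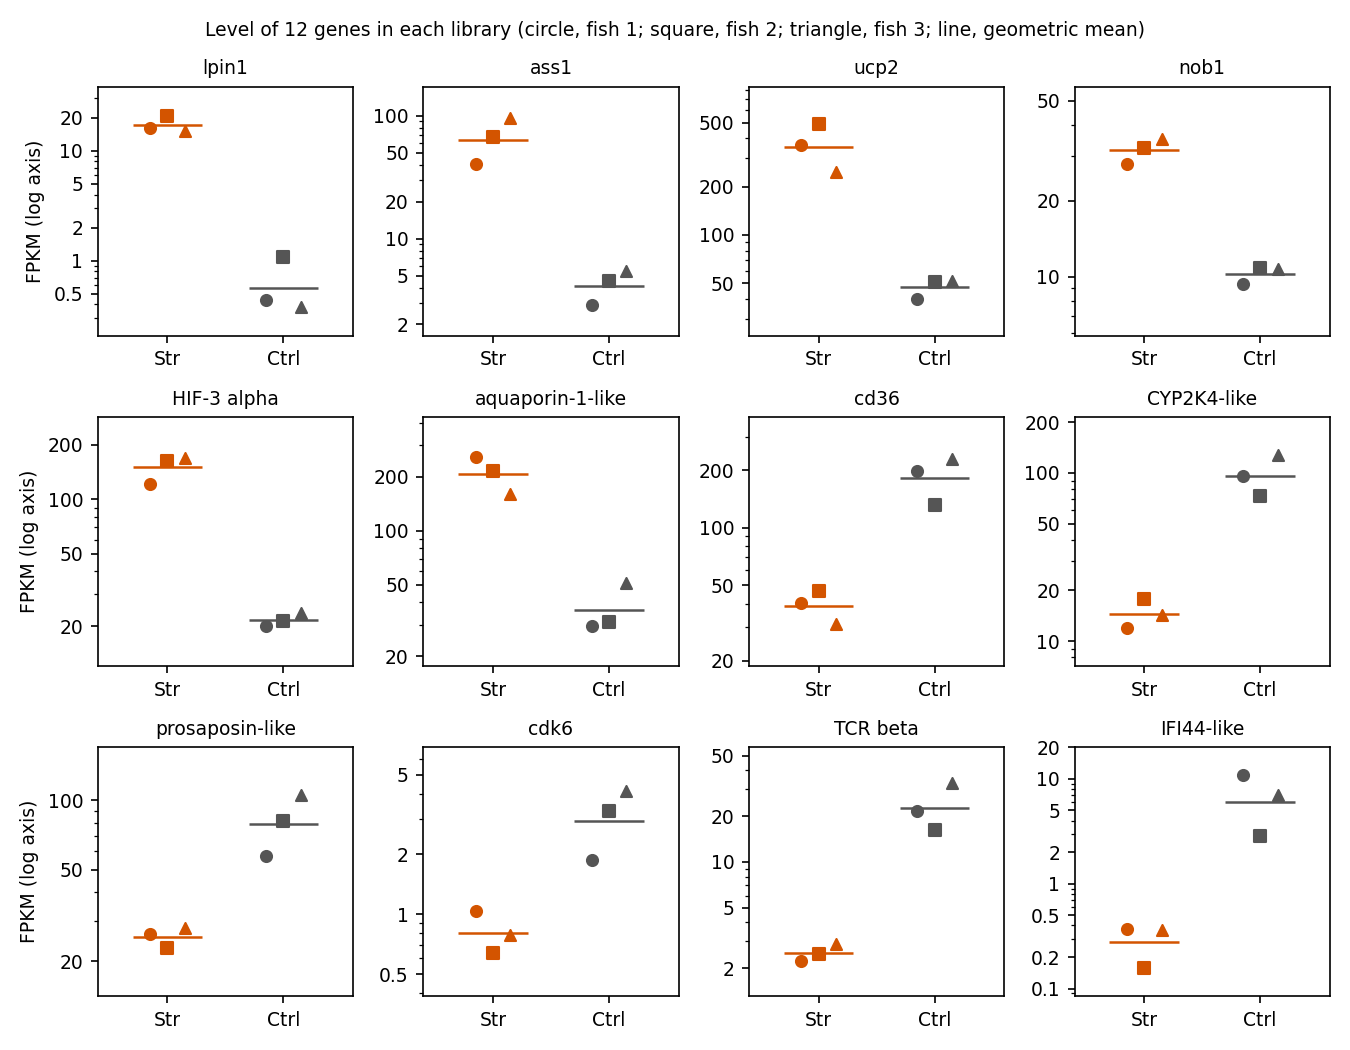
FPKM of 12 genes in each Str library (orange, left) and Ctrl library (grey, right) on a log axis, with the geometric mean as a line and a symbol for each fish. In every panel the Str points and the Ctrl points do not overlap, for example 28.1 to 35.3 FPKM against 9.34 to 10.8 FPKM for *nob1*. The choice of called genes largely fixed this in advance, since 1012 of the 1014 called genes have groups that do not overlap.

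Genes that build ribosomes were higher in Str more often than lower. Ribosomes are assembled in the nucleolus, where RNA polymerase I makes the long precursor RNA, small nucleolar complexes trim and modify it, and assembly factors carry the subunits out of the nucleus. In the KEGG list ribosome biogenesis in eukaryotes, 14 of 126 tested genes were called higher and 0 lower, with a median log2 fold change of 0.53, and 102 of the 126 lay above 0. In the GO list rRNA processing, 52 of 55 genes lay above 0, with 4 called higher and a median of 0.79. Its share called of 7.27% is near the 5.88% over all genes. The nucleolus list had 20 of 199 called higher and 2 lower (median 0.41). *nob1*, the endonuclease that makes the last cut of the small subunit RNA, had 28.1, 32.3 and 35.3 FPKM in Str, against 9.34, 10.8 and 10.7 FPKM in Ctrl (log2 fold change 1.68, SE 0.22, adjusted p = 0.0072). The libraries within each group were close together. *gnl2*, a GTPase of the large subunit, had 35.4, 39.9 and 41.5 FPKM in Str and 12.1, 16.8 and 18.1 FPKM in Ctrl, and *wdr43*, which sits on the precursor RNA, had 43.6, 46 and 47.1 FPKM in Str and 14.8, 20.7 and 20.8 FPKM in Ctrl. Their log2 fold changes were 1.38 and 1.34 (SE 0.22 and 0.24). The other called members were of similar size, between 1.11 for the exonuclease gene *rexo4* and 1.57 for *rcl1*, and comprised *utp6*, *utp14a*, *wdr3*, *tsr1*, *gnl3l*, *aamp*, *isg20l2* and a notchless-like gene (LOC113645008). A larger change of 2.51 was seen for exportin-1 (LOC113640521), which takes subunits and many other cargoes out of the nucleus.

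A called rise was found for a subunit of the polymerase and for no ribosomal protein of the KEGG list. The KEGG list RNA polymerase had 1 of 44 genes called higher and 0 lower (median 0.24). Its share called of 2.27% is not above the 5.88% over all genes. *polr1e*, a subunit of RNA polymerase I, had 21.5, 14 and 17.5 FPKM in Str and 3.31, 7.06 and 7.3 FPKM in Ctrl (log2 fold change 1.67, SE 0.30, adjusted p = 0.0178), and *taf1c*, a subunit of the factor that places this polymerase on its promoter, rose by 1.69. *sdad1* and *rrp36*, further assembly factors, rose by 1.64 and 1.06. Core proteins of the small nucleolar complexes missed the threshold. *dkc1* had 61.6, 60.5 and 52.7 FPKM in Str and 15.5, 25.8 and 34.5 FPKM in Ctrl (adjusted p = 0.0698), *nop56* had an adjusted p of 0.0737, and fibrillarin (*fbl*) had 83.3, 57.9 and 76.9 FPKM in Str and 20.7, 42.8 and 53.9 FPKM in Ctrl (adjusted p = 0.201). In these 3 genes the groups did not overlap, with Ctrl-1 the lowest library. Nucleolin (*ncl*) overlapped between the groups. The KEGG list ribosome, which holds the ribosomal proteins themselves, had 163 tested genes, a median of 0.01 and 2 called lower, and neither of those is a ribosomal protein by its product (a proline-rich protein 15-like gene and a FAM83F-like gene). The spliceosome list had 6 of 212 genes called higher and 1 lower (median 0.22), a share of 3.3% that is not above the 5.88% over all genes. With 1 library left out in turn, the calls in ribosome biogenesis numbered 5, 5, 1, 4, 1 and 1 higher, while its median stayed between 0.53 and 0.66. In the same fits rRNA processing had 0, 0, 0, 1, 0 and 0 genes called higher, and the nucleolus list had 4, 11, 1, 8, 1 and 1. Their medians stayed between 0.74 and 0.85 and between 0.36 and 0.47. Of the 18 called genes named for ribosome assembly and its polymerase, *nob1* was the single one to keep the call in all 6 fits.

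**Figure D5:**
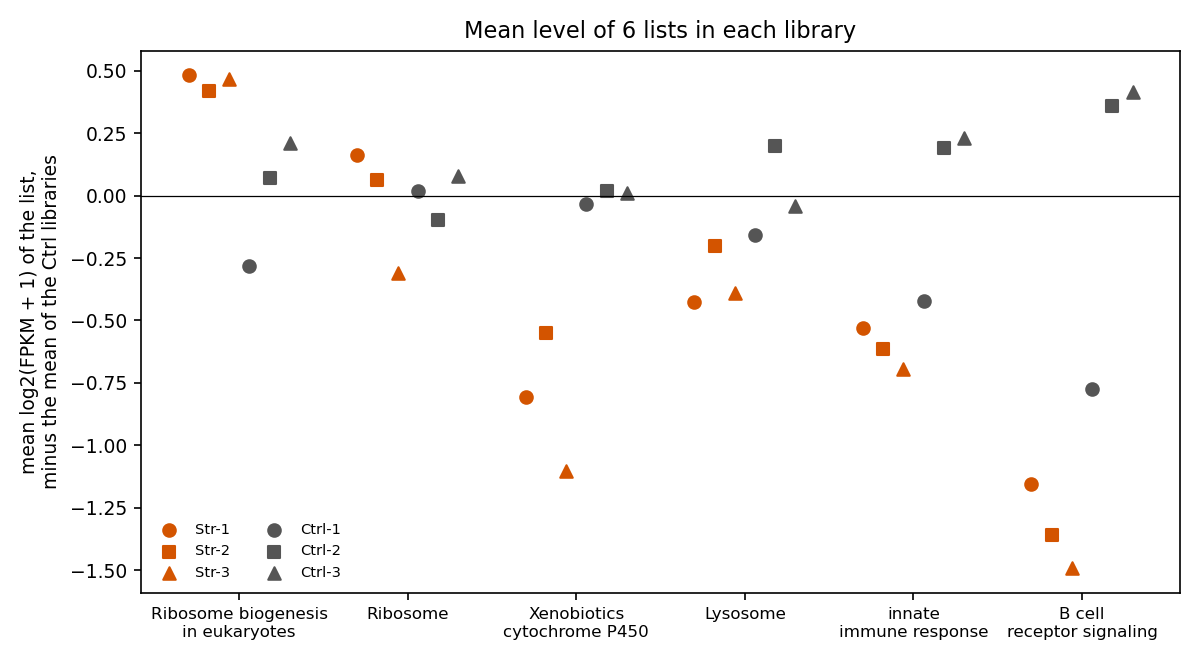
Mean log2(FPKM + 1) over the tested genes of 6 lists in each Str library (orange) and Ctrl library (grey), minus the mean of the Ctrl libraries (y axis). Ribosome biogenesis lies at 0.42 to 0.48 in Str and -0.28 to 0.21 in Ctrl, the ribosome list overlaps between the groups, and B cell receptor signaling lies at -1.49 to -1.15 in Str, with Ctrl-1 at -0.77 and the other Ctrl libraries at 0.36 and 0.41.

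Several amino acid genes that handle nitrogen rose in Str. Arginine synthesis joins citrulline and aspartate, and glutaminase and glutamine synthetase release and bind ammonia. In arginine biosynthesis, 5 of 23 tested genes were called higher and 0 lower, with a median log2 fold change of 0.42. Over all tested genes, 5.88% were called. *ass1*, argininosuccinate synthase, had 40.8, 67.1 and 96.1 FPKM in Str, against 2.89, 4.55 and 5.44 FPKM in Ctrl. All Str libraries were far above all Ctrl libraries, and the log2 fold change was 4.06 (SE 0.40, adjusted p = 0.0029). *otc*, which makes citrulline, had 9.94, 6.58 and 9.62 FPKM in Str and 1.31, 1.69 and 2.93 FPKM in Ctrl (log2 fold change 2.22, adjusted p = 0.0212). By contrast, *asl*, the next enzyme after *ass1*, had 4.77, 3.99 and 4.8 FPKM in Str and 4.97, 4.71 and 4.69 FPKM in Ctrl (adjusted p = 0.96), and *cps1* overlapped as well. The kidney-type glutaminase LOC113661266 rose by 2.28 (16.8, 13.5 and 18 FPKM in Str, 2.77, 3.62 and 3.98 FPKM in Ctrl) and the glutamine synthetase LOC113642972 by 3.18 (89.4, 67.6 and 82.3 FPKM in Str, 4.32, 14.2 and 9.7 FPKM in Ctrl). Thus both directions of the glutamine reaction had a gene that was called higher. The uptake of basic amino acids followed, with the transporter CAT1 (LOC113644953) at 22.5, 11.3 and 21.9 FPKM in Str and 0.878, 1.52 and 0.996 FPKM in Ctrl (log2 fold change 4.09, SE 0.37, adjusted p = 0.00269), whereas *slc1a1*, an uptake transporter of glutamate and aspartate, fell by 3.11 (4.05, 10.5 and 5.56 FPKM in Str, 70, 67.4 and 38.8 FPKM in Ctrl).

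Polyamine genes changed at several steps. Ornithine decarboxylase (LOC113659703), the rate-limiting enzyme of polyamine synthesis, had 25.1, 109 and 58.8 FPKM in Str and 5.16, 3.73 and 7.18 FPKM in Ctrl (log2 fold change 3.65, SE 0.84, adjusted p = 0.0372), with Str-2 again the highest. Its inhibitor antizyme 2 (LOC113660109) was also higher, at 35.2, 30.7 and 32.7 FPKM in Str and 7.82, 9.15 and 8.36 FPKM in Ctrl. The spermine oxidase gene *smox* rose by 2.63 (SE 0.31, adjusted p = 0.00539), while a second spermine oxidase locus, LOC113654137, fell by 1.79 and the peroxisomal oxidase *paox* fell by 1.42. Glycine, serine and threonine metabolism had 3 of 42 genes called higher and 3 lower (median -0.28). Called genes made up 14.3% of the list, beside 5.88% over all genes. *gldc* of the mitochondrial glycine cleavage system had 28.9, 32 and 22.8 FPKM in Str and 4.94, 3.83 and 5.93 FPKM in Ctrl (log2 fold change 2.55), and *cbs* (1.56), betaine-homocysteine methyltransferase (LOC113646449, 3.06) and the proline enzyme *pycr1* (2.28) rose too. The peroxisomal *dao*, which oxidizes D-amino acids, had 17.2, 19.3 and 10.7 FPKM in Str and 120, 64.7 and 63.4 FPKM in Ctrl (log2 fold change -2.41), and *pipox* of sarcosine breakdown fell by 2.04. Of the 17 called genes named for amino acids, 4 kept the call without each library (*ass1*, *smox*, the glutaminase and CAT1). Calls were lost for 10, 5, 13, 8, 11 and 12 of them with 1 library left out in turn.

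Nucleotide and cofactor genes had 7 of 225 called higher and 4 lower in purine metabolism (median log2 fold change 0.13) and 5 of 140 higher and 1 lower in pyrimidine metabolism (median 0.10). The shares called, 4.89% and 4.29%, are not above the 5.88% over all genes, so that the called genes are given as single genes. *nt5dc2*, of the 5′-nucleotidase family, had 46.2, 76.9 and 64.4 FPKM in Str and 4.17, 6.93 and 7.22 FPKM in Ctrl (log2 fold change 3.44, SE 0.32, adjusted p = 0.00269). *nt5e*, the cell-surface enzyme that makes adenosine from AMP, had 88.9, 69.6 and 105 FPKM in Str and 17.3, 17.3 and 24 FPKM in Ctrl (2.22), and *umps*, which closes pyrimidine synthesis, rose by 1.93. A pair of deaminases of purines fell. *gda*, guanine deaminase, had 0.656, 2.52 and 1.11 FPKM in Str and 18.6, 13.2 and 6.35 FPKM in Ctrl (log2 fold change -3.15), and AMP deaminase 3 (LOC113652450) fell by 1.70. For the cofactors, a nicotinamide riboside kinase 2-like locus (LOC113645141) had 79.4, 314 and 123 FPKM in Str and 21, 22.8 and 11.3 FPKM in Ctrl (3.26), while NAD kinase (*nadk*), which makes NADP, had 8.79, 7.76 and 8.65 FPKM in Str and 23.5, 34.7 and 22.4 FPKM in Ctrl (-1.63). In folate metabolism the mitochondrial *mthfd1l* rose by 2.09 and the cytosolic 10-formyltetrahydrofolate dehydrogenase LOC113642874 fell by 2.28. *nt5dc2* kept its call without each library. The other 8 lost it at least once, with 3, 2, 8, 4, 8 and 6 calls lost with 1 library left out in turn.

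In lipid metabolism, several genes for taking up fat and for joining it to glycerol were lower, while an elongase and a desaturase of fatty acids were higher without a rise of their lists. In enterocytes, absorbed fatty acids and monoacylglycerol are rebuilt into triacylglycerol for export. *cd36*, a fatty acid uptake receptor, had 40.2, 46.7 and 31.2 FPKM in Str, against 198, 131 and 229 FPKM in Ctrl (log2 fold change -2.20, SE 0.42, adjusted p = 0.0201). The monoacylglycerol acyltransferase 2 gene LOC113650341, the first step of this rebuilding, had 20, 13.3 and 9.72 FPKM in Str and 41.3, 33.5 and 52.1 FPKM in Ctrl (-1.51), and *dgat2*, for the last step, at its called entry had 0.501, 0.272 and 0.376 FPKM in Str and 2.54, 3.57 and 12.1 FPKM in Ctrl (-3.84). *agpat3* fell by 2.25. These falls moved with the enterocyte markers, whose summed level was 2588 to 3603 FPKM in Str and 5310 to 11250 FPKM in Ctrl, and the part of cell composition in them was not tested. The phosphatidate phosphatases went apart, since *lpin1* rose as given above and *lpin2* had 1.09, 2.58 and 3.42 FPKM in Str and 7.71, 6.37 and 10.3 FPKM in Ctrl (log2 fold change -1.73, adjusted p = 0.0361). In all, glycerolipid metabolism had 4 of 77 genes called higher and 7 lower, with a median of 0.05. That is 14.3% of the list, beside 5.88% over all genes.

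Fatty acid degradation had 5 of 62 genes called lower and 0 higher (median -0.44), and 45 of its genes lay below 0. Its share called of 8.06% is near the 5.88% over all genes. *cpt2*, which carries long acyl groups into mitochondrial oxidation, had 5.5, 6.43 and 4.46 FPKM in Str and 11.4, 16.7 and 14.7 FPKM in Ctrl (log2 fold change -1.31). An acyl-CoA dehydrogenase 6 gene (LOC113661428) fell by 2.00 and *eci2* by 1.16. The liver-type *cpt1* locus LOC113648527, the control point of this pathway, overlapped between the groups, with 1.26, 11 and 2.58 FPKM in Str and 0.999, 4.45 and 2.78 FPKM in Ctrl. In the peroxisome list 5 of 127 genes were called lower and 0 higher (median -0.30), and its share called of 3.94% is not above the 5.88% over all tested genes. On the side of synthesis, fatty acid elongation had 1 of 30 genes called higher and 0 lower (median -0.33), and biosynthesis of unsaturated fatty acids had 3 of 29 higher and 0 lower (median -0.12), so that most genes of both lists lay below 0. The called *elovl6*, which elongates saturated fatty acids, had 43, 13.4 and 53 FPKM in Str and 1.59, 4.26 and 3.98 FPKM in Ctrl (3.56, SE 0.84, adjusted p = 0.0407), and the acyl-CoA desaturase LOC113639949 had 18.7, 21.9 and 16.6 FPKM in Str and 3.55, 6.43 and 8.28 FPKM in Ctrl (1.74). Fatty acid synthase (*fasn*) overlapped, at 3.17, 2.43 and 4.4 FPKM in Str and 1.66, 3.07 and 3.98 FPKM in Ctrl (adjusted p = 0.839). The gene LOC113646975 for a choline-phosphate cytidylyl transferase, the control step of phosphatidylcholine synthesis, rose by 2.49, with 100, 119 and 109 FPKM in Str and 25.5, 10.1 and 23 FPKM in Ctrl. Of the 15 called lipid genes named here, *lpin1* alone kept the call in each fit, and 8, 10, 14, 9, 9 and 14 calls were lost with 1 library left out in turn. Fatty acid degradation had 2, 3, 1, 2, 2 and 1 genes called lower in the same 6 fits.

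Sphingolipid and retinoid genes showed changes on either side of their signal molecules. Sphingomyelinases release ceramide, and ceramide kinase and sphingosine phosphate phosphatase set the level of its phosphorylated forms. Ceramide kinase (*cerk*) had 28, 22.5 and 35.1 FPKM in Str, against 4.67, 2.01 and 3.62 FPKM in Ctrl (log2 fold change 3.05, SE 0.46, adjusted p = 0.0125), and *sgpp2* had 31.7, 54.3 and 45.1 FPKM in Str, against 9.23, 13.9 and 8.28 FPKM in Ctrl (2.11, SE 0.31). Both sets were clearly apart. The acid sphingomyelinase *smpd1* fell by 1.53 and its relatives *smpdl3b* and *smpdl3a* by 2.25 and 2.05, with *smpdl3b* at 13.6, 28.9 and 11.4 FPKM in Str and 79.4, 82.8 and 107 FPKM in Ctrl. Sphingolipid metabolism as a whole had 3 of 76 genes called higher and 6 lower (median -0.12). This is 11.8% of the list, beside 5.88% over all genes. Of the retinoid genes, *dhrs3*, which reduces retinal back to retinol, had 40.6, 44.7 and 50.7 FPKM in Str and 6.67, 9.54 and 11.6 FPKM in Ctrl (2.36, SE 0.27, adjusted p = 0.0049). *aldh1a2*, which makes retinoic acid, had 45.2, 75 and 51.9 FPKM in Str and 155, 179 and 186 FPKM in Ctrl (-1.54), and the enterocyte retinol carrier RBP2 (LOC113653746) fell by 3.96, with 16.7, 10.1 and 6.17 FPKM in Str and an uneven 314, 30.3 and 146 FPKM in Ctrl. Of these 8 genes, *dhrs3* kept its call throughout, and 5, 2, 5, 4, 3 and 7 calls were lost with 1 library left out in turn.

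The respiratory chain and the citrate cycle did not move as groups, while loci for uncoupling protein 2 and an ADP/ATP translocase rose. The GO list mitochondrial inner membrane had 4 of 125 genes called higher and 1 lower (median log2 fold change 0.10), a share of 4% that is not above the 5.88% over all genes. Oxidative phosphorylation had 1 of 131 genes called (median -0.03), and that gene, LOC113640599, is a pentatricopeptide repeat protein and no subunit of the chain. The citrate cycle had 0 of 39 called in edgeR (median 0.03), with 4 at an unadjusted p below 0.05 and 1 called by DESeq2. Citrate synthase (*cs*) measured 52.5, 44.2 and 44 FPKM in Str and 47.8, 49.2 and 56.6 FPKM in Ctrl, and *sdha* of complex II measured 39, 38.9 and 31.5 FPKM in Str and 44.7, 46 and 48.9 FPKM in Ctrl, which is lower in each Str library but did not pass the test (adjusted p = 0.633). In contrast, *ucp2*, an uncoupling protein of the inner membrane, had 365, 491 and 248 FPKM in Str, against 40, 51.1 and 51.5 FPKM in Ctrl. It was the most abundant of the called metabolic genes named here in Str, with a log2 fold change of 3.02 (SE 0.35, adjusted p = 0.00508). A second locus of this product, LOC113638407, rose by 3.93 with 15.6, 18.1 and 3.92 FPKM in Str and 0.601, 1.01 and 0.988 FPKM in Ctrl, and the ADP/ATP translocase 3-like gene LOC113654404 rose by 3.08.

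Glycolysis and gluconeogenesis had 1 of 65 genes called higher and 5 lower (median -0.09), a share of 9.23% beside 5.88% over all genes, and at most 2 genes of the list were called with a library left out. *pfkl*, the liver form of the rate-limiting phosphofructokinase, had 0.69, 1.08 and 0.681 FPKM in Str and 3, 2.71 and 3.03 FPKM in Ctrl (log2 fold change -1.78), the hexokinase HKDC1 gene LOC113661028 fell by 1.70, and the mitochondrial acetyl-CoA synthetase *acss1* had 1.62, 1.98 and 0.667 FPKM in Str and 7.64, 12.7 and 12.1 FPKM in Ctrl (-2.84). *pfkfb1*, which sets the level of the main activator of phosphofructokinase, rose by 2.46 at a low level. The cytosolic phosphoenolpyruvate carboxykinase LOC113648560, the first committed enzyme of gluconeogenesis, was dominated by Str-2 with 789 FPKM beside 76.5 and 69.1 FPKM in the other Str libraries and 67.1, 41.3 and 61.3 FPKM in Ctrl, and was not called (adjusted p = 0.137). *ugp2*, which makes UDP-glucose for glycogen and glucuronides, had 50.8, 208 and 86 FPKM in Str and 15.4, 20.3 and 27.1 FPKM in Ctrl (2.55), whereas glutamine-fructose-6-phosphate aminotransferase (LOC113646939), the entry to amino sugars for mucus and glycans, had 59.1, 103 and 56.3 FPKM in Str and 219, 360 and 321 FPKM in Ctrl (-1.96). *aldh2* fell by 1.95. Among the 12 called energy genes named here, *ucp2* kept the call in each fit, and 9, 6, 8, 8, 11 and 11 calls were lost with 1 library left out in turn.

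Genes of the cytochrome P450 and glucuronate lists were mostly lower in Str. Cytochromes P450 oxidize foreign compounds and bile or steroid molecules, and transferases then attach glutathione or glucuronic acid to them. In metabolism of xenobiotics by cytochrome P450, 7 of 37 genes were called lower and 1 higher (median log2 fold change -0.77), and 31 of the 37 lay below 0. Pentose and glucuronate interconversions, which shares the glucuronosyltransferases, had 6 of 32 lower and 1 higher (median -0.70). Drug metabolism by other enzymes had 1 of 38 genes called higher and 2 lower (median 0.21), and 21 lay above 0. Glutathione metabolism had 3 of 54 higher and 3 lower (median -0.34). The shares called in these lists were 7.89% and 11.1%, beside 5.88% over all genes. *mgst1*, a microsomal glutathione transferase, had 9.08, 8.39 and 5.11 FPKM in Str, against 23.9, 34.9 and 41.7 FPKM in Ctrl (log2 fold change -2.07, SE 0.37, adjusted p = 0.0168). *gstp1* had 32.9, 29.4 and 19.7 FPKM in Str and 126, 116 and 89.7 FPKM in Ctrl (-1.99), and *ugt1a1*, a glucuronosyltransferase, had 1.23, 2.73 and 1.22 FPKM in Str and 7.37, 10 and 14.5 FPKM in Ctrl (-2.53). The groups were apart in each. The cytochrome CYP2K4-like gene LOC113639515, of a family known from fish, fell by 2.70, with 12, 17.8 and 14.3 FPKM in Str and 95.9, 73.3 and 127 FPKM in Ctrl. *hsd11b1l* and *dhdh* fell by 1.94 and 2.55, and the aldehyde dehydrogenase 3B1-like gene LOC113659208 was the single member called higher (1.15). A further called member, LOC113656322, is named a JNK-activating modulator in the table and is no detoxification enzyme by its product.

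The classical antioxidant genes named here were not called. Catalase (*cat*) had 19.9, 113 and 37.7 FPKM in Str and 115, 82.2 and 108 FPKM in Ctrl, so that Str-2 lay within the Ctrl range (adjusted p = 0.488). *nfe2l2*, the NRF2 regulator of these genes, had 60.1, 116 and 75.6 FPKM in Str and 60.5, 75.2 and 89.2 FPKM in Ctrl, and *gclc* of glutathione synthesis had a log2 fold change of -0.66 (adjusted p = 0.214). The list of P450 genes was lower in the same libraries as the enterocyte markers, and their part in the result was not tested. None of the 8 detoxification calls held in all 6 fits. They were lost for 6, 3, 8, 5, 7 and 8 genes with 1 library left out in turn, and the xenobiotic list had 0 genes called without Str-3 or Ctrl-3, while its median stayed between -1.04 and -0.32.

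Few lysosomal genes were called, and more of them lower than higher. Lysosomes digest material with acid hydrolases, autophagy delivers cytoplasm to them, and the proteasome digests single tagged proteins. The KEGG lysosome list had 12 of 200 genes called lower and 2 higher (median log2 fold change -0.29). Its share called of 7% is close to the 5.88% over all genes. The GO list lysosome had 3 of 91 lower and 1 higher (median -0.31), a share of 4.4% that is not above it. Prosaposin (LOC113642301), the precursor of the saposin cofactors, had 26.2, 22.8 and 27.9 FPKM in Str and 57.4, 81.2 and 105 FPKM in Ctrl (-1.59, SE 0.27, adjusted p = 0.0157). The cystine exporter *ctns* had 5.96, 5.78 and 4.2 FPKM in Str and 14, 19.3 and 13.5 FPKM in Ctrl (-1.50), and the glycosidases *manba* and LOC113651735 (alpha-glucosidase) fell by 2.07 and 1.23. Cathepsins differed among themselves. Cathepsin K (LOC113644778) had 45.6, 54.2 and 29.9 FPKM in Str and 123, 149 and 97.3 FPKM in Ctrl (-1.46), whereas a cathepsin L1 gene (LOC113637690) had 307, 218 and 236 FPKM in Str and 90.1, 61.2 and 70.9 FPKM in Ctrl (1.78). Some hydrolases are abundant in macrophages, and the summed level of 15 macrophage and neutrophil markers was 780, 818 and 648 FPKM in Str, against 4576, 2874 and 2616 FPKM in Ctrl, with 3 called lower and 0 higher. A lysozyme g locus (LOC113647721) carried most of this sum, and without it the level was 399.6, 473 and 384 FPKM in Str, against 776, 753 and 770 FPKM in Ctrl. The 15 markers had a median log2 fold change of -0.81. The macrophage genes *marco* (log2 fold change 1.26), *ncf1* (0.15) and *csf1r* (-0.31) were not called, and only *marco* and *ncf1* lay above 0. A second CSF1 receptor locus (LOC113650173, -1.33, adjusted p = 0.0509), coronin-1A (LOC113642135, -1.56) and macrosialin (LOC113657532, -0.76) were lower without a call. The part of these cells in the KEGG lysosome list was not tested.

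Among autophagy genes 2 loci stood out, while the lists as a whole did not. Regulation of autophagy had 2 of 41 genes called higher and 0 lower (median log2 fold change 0.17), and the GO list autophagy had 1 of 44 higher and 0 lower (median 0.12), shares of 4.88% and 2.27% that are not above the 5.88% over all genes. The kinase *ulk2*, which the table splits over 2 entries, had 21.2, 25.1 and 38.9 FPKM in Str and 0.846, 2.9 and 2.83 FPKM in Ctrl at the entry with the smaller p (log2 fold change 3.81, SE 0.49, adjusted p = 0.0072), and the other entry was called higher as well. A gene of the LC3 family (LOC113639121), whose protein coats the autophagosome, had 170, 159 and 189 FPKM in Str and 38.1, 29.8 and 32.5 FPKM in Ctrl (2.39, SE 0.35). The proteasome had 0 of 64 genes called in edgeR (median -0.12), with 9 at an unadjusted p below 0.05 and 2 called by DESeq2. No chaperone named here was called higher, but each chaperone list held a called rise. Protein folding had 1 of 95 genes called higher and 4 lower (median 0.12), a share of 5.26%. Unfolded protein binding had 1 of 50 higher and 5 lower (median 0.11), a share of 12%. In response to unfolded protein, 1 of 7 genes was called higher and 0 lower (median 0.38), and all 7 lay above 0. Both this list and protein folding had 1 gene called higher in each of the 6 fits with a library left out. Protein folding had 1, 0, 0, 1, 1 and 0 genes called lower in these fits. Unfolded protein binding had 0 called higher in each, and 0, 1, 0, 1, 1 and 0 called lower. The chaperones named here are single genes and do not stand for these lists. The heat shock cognate gene LOC113645341 had 35.9, 35.7 and 31.5 FPKM in Str and 85.3, 102 and 93 FPKM in Ctrl (-1.39), its partners *dnajb1* and *dnajb5* fell by 1.01 and 3.09, and a calreticulin-like gene (LOC113645299) of the endoplasmic reticulum fell by 2.45. *hsp90ab1* had 675, 656 and 433 FPKM in Str and 528, 664 and 561 FPKM in Ctrl (adjusted p = 0.941). The stress factors *atf4* and *ddit3* of the unfolded protein response overlapped, with adjusted p values of 0.956 and 0.791. Of the 12 called genes named for lysosome, autophagy and chaperones, *ulk2* kept the call in each fit, and 9, 6, 10, 6, 8 and 11 calls were lost with 1 library left out in turn. The KEGG lysosome list had 2, 10, 0, 5, 3 and 0 genes called lower in these fits.

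Several single genes of growth signaling rose. The insulin and mTOR pathways promote growth when nutrients are present, and FoxO factors and sestrins are active when they are not. FoxO signaling had 12 of 263 genes called higher and 5 lower (median log2 fold change 0.03), and mTOR signaling had 8 of 121 higher and 1 lower (median -0.03). The shares called, 6.46% and 7.44%, are near the 5.88% over all genes, so that the called genes are given as single genes. *sesn1*, sestrin-1, which restrains mTOR, had 188, 126 and 165 FPKM in Str and 16.3, 50.4 and 45.7 FPKM in Ctrl (2.20, SE 0.37, adjusted p = 0.015). IGF binding protein 1 (LOC113664030), which binds circulating growth factor, had 158, 310 and 195 FPKM in Str and 37.3, 19.6 and 19.4 FPKM in Ctrl (3.11, SE 0.47). Each group was far from the other. *foxo3* rose by 1.32, an insulin receptor gene (LOC113647079) by 1.64, *pik3r1* by 1.50 and an S6 kinase beta-2-like gene (LOC113650019) by 1.58. *igf1* itself was low, with 1.41, 1.95 and 1.9 FPKM in Str and 0.233, 0.346 and 0.442 FPKM in Ctrl (2.44).

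The cell cycle list had 6 of 185 genes called lower and 1 higher (median log2 fold change -0.16), and its share called of 3.78% is not above the 5.88% over all genes, so that its called genes are given as single genes. *cdk6* had 1.04, 0.638 and 0.787 FPKM in Str and 1.87, 3.29 and 4.17 FPKM in Ctrl (-1.84, SE 0.31, adjusted p = 0.015), and its partners *ccnd1* and cyclin D2 (LOC113647407) fell by 1.36 and 1.58. The mitotic genes *cdk1* (0.924, 0.856 and 0.611 FPKM in Str, 2.14, 3.7 and 6.2 FPKM in Ctrl) and *top2a* fell by 2.22 and 2.06. *pcna*, a marker of replicating cells, overlapped between the groups (adjusted p = 0.36). BTG2 (LOC113648685), which holds cells before division, had 239, 854 and 331 FPKM in Str and 63.3, 37.3 and 30.2 FPKM in Ctrl (3.45, SE 0.59, adjusted p = 0.0157). In DNA repair, a uracil-DNA glycosylase-like gene (LOC113656670) had 0.219, 0.112 and 0.171 FPKM in Str and 1.89, 2.33 and 3 FPKM in Ctrl (-3.76, SE 0.42), and *msh6* of mismatch repair fell by 1.60. Of the 16 called genes named for growth and division, the glycosylase was the single one with a call in each of the 6 fits. With 1 library left out in turn, 7, 6, 13, 8, 11 and 15 calls were lost. The mTOR list had 6, 7, 3, 6, 4 and 2 genes called higher in those fits.

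Clock genes went both ways. The circadian clock of vertebrates turns on an activator pair, CLOCK and ARNTL, and on repressors of the PER and NR1D families, and the output factors DBP and NFIL3 bind the same sites with opposite effects. In circadian regulation of gene expression, 4 of 14 genes were called higher, among them the CART peptide gene described with the neural genes, and 1 lower. In circadian rhythm, 2 of 10 genes were called lower and 0 higher (median -0.40), both of the activator pair below. Rhythmic process had 0 of 13 called in edgeR, with 1 at an unadjusted p below 0.05 and 1 called by DESeq2. These short lists had shares called of 35.7%, 20% and 0%, beside 5.88% over all genes. *clock* had 0.495, 0.405 and 0.721 FPKM in Str and 0.977, 3.34 and 1.7 FPKM in Ctrl (log2 fold change -1.80, adjusted p = 0.0397), and an ARNTL-like gene (LOC113652737) had 0.378, 0.197 and 0.0849 FPKM in Str and 3.85, 0.802 and 2.55 FPKM in Ctrl (-3.47). On the repressor side, a *per2* locus (LOC113640651) had 6.16, 13.4 and 11.5 FPKM in Str and 1.23, 2.38 and 2.83 FPKM in Ctrl (2.37), an *nr1d2* locus (LOC113649769) had 21.8, 18.3 and 25.3 FPKM in Str and 3.85, 6.63 and 9.11 FPKM in Ctrl (1.83), and the repressor CIART (LOC113660099) rose by 1.77. NFIL3 (LOC113639613) rose by 2.16 and DBP (LOC113643415) fell by 1.53. *aanat*, of melatonin synthesis, had 3.94, 2.59 and 4.23 FPKM in Str and 0.405, 0.371 and 0.975 FPKM in Ctrl (2.68). No clock times of sampling are given, and a difference in time of day between the groups cannot be told apart from transport in these genes.

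In response to hypoxia, 4 of 47 genes were called higher and 0 lower (median log2 fold change 0.15). This share of 8.51% is near the 5.88% over all genes, so that the called genes are given as single genes. The hypoxia factor HIF-3 alpha (LOC113643670) had 122, 163 and 170 FPKM in Str, against 20.1, 21.3 and 23.5 FPKM in Ctrl, with narrow groups far apart (2.86, SE 0.30, adjusted p = 0.00399). *epas1* (HIF-2 alpha) had 31.2, 22.5 and 33.7 FPKM in Str and 7.14, 10.9 and 9.89 FPKM in Ctrl (1.71). HIF-1 alpha (LOC113644401), which is regulated mainly at the protein, overlapped at 26.8, 38.7 and 47.9 FPKM in Str and 16.6, 45.4 and 37.3 FPKM in Ctrl (adjusted p = 0.72), and so did its classical target *vegfa*, at 3.2, 13.9 and 7.23 FPKM in Str and 11.4, 8.52 and 12.4 FPKM in Ctrl (adjusted p = 0.739). Lysyl oxidase homolog 2 (LOC113660897) at its called entry rose by 3.22 with 52.5, 40 and 56.4 FPKM in Str and 3.86, 6.47 and 6.46 FPKM in Ctrl. Of the single factors, *cebpd* had 321, 314 and 605 FPKM in Str and 25.5, 24.4 and 54.3 FPKM in Ctrl (3.64), and hepatic leukemia factor (LOC113650492) rose by 3.07. HIF-3 alpha, the lysyl oxidase homolog and *cebpd* kept their calls in each fit, and of the 13 called clock and hypoxia genes 5, 5, 9, 6, 8 and 9 lost theirs with 1 library left out in turn. The hypoxia list had 3, 4, 3, 3, 3 and 2 genes called in these fits.

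Matrix genes were called in both directions, among basement membrane and interstitial components alike. Basement membranes are built from laminins and collagen IV, interstitial matrix from collagen I, fibronectin and elastic microfibrils. ECM-receptor interaction had 13 of 126 genes called higher and 8 lower (median log2 fold change 0.10). Of its genes, 16.7% were called, beside 5.88% over all genes. Some called members, such as a potassium channel and the CART peptide, are no matrix proteins. Fibronectin (LOC113649040) had 539, 159 and 570 FPKM in Str, against 35.6, 44.7 and 62.5 FPKM in Ctrl (3.21, SE 0.55, adjusted p = 0.0157). Its lowest Str library, Str-2, is the one with the lowest level of smooth muscle markers given above, whose part was not tested. The laminin alpha-2 locus LOC113643286, at the entry of the table that was called, had 24.4, 16.4 and 24.1 FPKM in Str and 3.81, 4.3 and 5.02 FPKM in Ctrl (2.35, SE 0.24, adjusted p = 0.00346), whereas laminin alpha-3 (LOC113657702), the epithelial chain, had 0.976, 1.29 and 0.147 FPKM in Str and 10.4, 8.99 and 9.39 FPKM in Ctrl (-3.53). Both collagen IV chains rose, *col4a2* by 1.98 and LOC113654527 by 2.14, with *col4a2* at 89.5, 71.6 and 108 FPKM in Str and 17, 28.4 and 26 FPKM in Ctrl. The collagen I chain LOC113653604 fell by 1.82, with 24.2, 11.1 and 29.8 FPKM in Str and 77.7, 83.5 and 72.6 FPKM in Ctrl. Other collagen I loci were not called. The more abundant *col1a2* had 115, 43.3 and 87 FPKM in Str and 149, 139 and 125 FPKM in Ctrl (-0.73, adjusted p = 0.354). LOC113638083 had a log2 fold change of -1.48 (adjusted p = 0.0765). *col6a1* did not pass the test either (71.7, 50.9 and 74.7 FPKM in Str, 118, 176 and 149 FPKM in Ctrl, adjusted p = 0.0599).

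Among elastic and vascular genes, a pair of neighbouring loci for microfibril-associated glycoprotein 4 rose. LOC113646626 had 456, 438 and 390 FPKM in Str and 28.6, 37.8 and 54.8 FPKM in Ctrl (log2 fold change 3.48), and LOC113646627 had 30.7, 42.4 and 16.3 FPKM in Str and 0.496, 1.58 and 1.76 FPKM in Ctrl (4.66). Reads of so similar loci may be shared, and their split is uncertain. Fibrillin-1 (LOC113664003), thrombospondin-2 (LOC113660770) and a fibulin-like gene (LOC113660768) rose by 1.66, 1.57 and 2.03, and *itgb5* fell by 1.62. The hyaluronan receptor LYVE1 (LOC113646718), a marker of lymphatic vessels in mammals, had 62.6, 48 and 82.2 FPKM in Str, against 2.4, 4.46 and 5.09 FPKM in Ctrl, which is among the smallest adjusted p values of the genes described (4.09, SE 0.35, adjusted p = 0.00269). Endothelial genes did not move one way. *plvap*, of the endothelial fenestrae, rose by 1.81 (98.2, 82.1 and 77.1 FPKM in Str, 12.4, 30.1 and 36.8 FPKM in Ctrl), while *tie1* fell by 2.16 (2.95, 1.38 and 2.54 FPKM in Str, 7.32, 12.1 and 12.7 FPKM in Ctrl) and the sphingosine 1-phosphate receptor 1 gene LOC113634496 by 3.46 (0.79, 0.572 and 1.1 FPKM in Str, 7.99, 5.91 and 14.4 FPKM in Ctrl). *nox4*, an oxidase that produces hydrogen peroxide, had 4.85, 6.94 and 7.51 FPKM in Str and 0.318, 0.596 and 0.126 FPKM in Ctrl (4.24, SE 0.59). Laminin alpha-2, LYVE1 and *nox4* kept the call in each fit. Of the 17 called genes named for matrix and vessels, 9, 6, 13, 9, 11 and 14 lost it with 1 library left out in turn, and ECM-receptor interaction had 8, 10, 3, 8, 6 and 3 genes called higher in these fits.

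Transport genes were called in both directions, with most of the rises named here among potassium channels. An aquaporin-1-like water channel, LOC113635038, had 258, 215 and 160 FPKM in Str, against 29.5, 31.2 and 51 FPKM in Ctrl (log2 fold change 2.57, SE 0.37, adjusted p = 0.0108). The groups were far apart, and the call held in each fit. In potassium ion transport, 4 of 31 genes were called higher and 1 lower (median 0.56), a share called of 16.1%. The pacemaker channel *hcn2* had 3.58, 6.31 and 6.83 FPKM in Str and 0.183, 0.366 and 0.32 FPKM in Ctrl (4.34, SE 0.65), and LOC113651149 (KCNH7), *kcnq5* and *kcnj8* rose by 2.99, 1.66 and 1.27. Sodium ion transport had 1 of 26 genes called higher and 3 lower (median 0.29). Calcium ion transport had 2 of 34 higher and 2 lower (median -0.12), and chloride transport 1 of 21 higher and 0 lower (median -0.15). Their shares called were 15.4%, 11.8% and 4.76%, the last not above the 5.88% over all genes. The potassium channel *kcnc1* fell by 1.95 (3.29, 4.68 and 2.24 FPKM in Str, 14.6, 12.8 and 13.3 FPKM in Ctrl). The sodium pump subunit LOC113648762 had 33.4, 29.7 and 33 FPKM in Str and 12.9, 17.3 and 20.3 FPKM in Ctrl, with no overlap, but missed the threshold (1.00, adjusted p = 0.0596). A pair of citrate carrier (SLC13A5) loci went apart, LOC113646922 with 8.14, 5.01 and 3.9 FPKM in Str and 0.344, 1 and 1.34 FPKM in Ctrl (2.78) and LOC113646946 with 0.175, 0.511 and 0.414 FPKM in Str and 4.49, 4.6 and 1.99 FPKM in Ctrl (-3.30). The sugar cotransporter *slc5a9* fell by 1.32. The 9 called transport genes lost 6, 5, 7, 6, 6 and 8 calls with 1 library left out in turn.

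Markers of enteric neurons and endocrine cells leaned upward, with 1 of them called, and receptor genes went both ways. Of 12 tested markers of these cells, 1 was called higher and 0 lower (median log2 fold change 0.87), too few to set against the 5.88% over all genes. Their summed level was 102, 117 and 193 FPKM in Str, against 59.8, 80.2 and 75.3 FPKM in Ctrl. The called marker was the granule protein *scg3*, with 27.2, 49.6 and 61.6 FPKM in Str and 9.33, 13.3 and 14.7 FPKM in Ctrl (1.96, SE 0.34, adjusted p = 0.0161). Without *scg3* the sums were 75.24, 67.08 and 131.01 FPKM in Str and 50.45, 66.88 and 60.59 FPKM in Ctrl, so that Str-2 and Ctrl-2 were nearly level. Chromogranin A (*chga*) had 6.03, 3.96 and 2.9 FPKM in Str and 1.71, 1.86 and 1.91 FPKM in Ctrl and was not called (adjusted p = 0.089). Of peptide genes, *adm* (adrenomedullin, which widens vessels) and *adcyap1* (PACAP, a gut neuropeptide) rose by 1.45 and 1.07, and the vesicle GTPase *rab3c* by 1.67. A CART peptide locus, LOC113661633, known from appetite control, had 3.13, 5.52 and 8.31 FPKM in Str and was listed at 0, 0 and 0.0447 FPKM in Ctrl, so that no firm fold can be given (adjusted p = 0.0398).

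Neuroactive ligand-receptor interaction had 7 of 201 genes called higher and 11 lower (median log2 fold change -0.22). Its share called of 8.96% is near the 5.88% over all genes. The neuropeptide Y receptor 1 gene LOC113660786 had 0.777, 0.873 and 0.962 FPKM in Str, against 8.18, 7.99 and 9.88 FPKM in Ctrl. Both groups were narrow, and the change was -3.27 (SE 0.31, adjusted p = 0.00269). Receptors for apelin (LOC113661314), glucagon (LOC113636376), histamine (LOC113659937) and melanocortin (LOC113655752) fell by 2.70, 2.63, 2.57 and 1.78. The rises were a proteinase-activated receptor (LOC113646498, 2.24, with 17.8, 16.5 and 26.1 FPKM in Str and 3.6, 4.82 and 4.9 FPKM in Ctrl) and receptors for leukotrienes, lipid mediators of inflammation. These were LOC113650053 (2.84) and LOC113649929 (2.26) for leukotriene B4 and LOC113642758 (2.31) for cysteinyl leukotrienes, all at 5 FPKM or less. The neuropeptide Y and proteinase-activated receptors kept the call in each fit, while 9, 9, 12, 8, 12 and 12 of the 14 called neural and receptor genes lost it with 1 library left out in turn.

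T cell genes were lower in Str. Of 16 tested markers of T and natural killer cells, 9 were called lower and 0 higher (median log2 fold change -2.10). Over all tested genes, 5.88% were called. The summed level of these markers was 31.4, 34.9 and 29.8 FPKM in Str, against 95.5, 127 and 233 FPKM in Ctrl. The T cell receptor beta gene LOC113659468 had 2.24, 2.49 and 2.86 FPKM in Str and 21.7, 16.1 and 33.1 FPKM in Ctrl (-3.17, SE 0.33, adjusted p = 0.00357). CD8 alpha (LOC113646393), of cytotoxic T cells, had 1.72, 1.85 and 1.27 FPKM in Str and 11.6, 7.52 and 25.1 FPKM in Ctrl (-3.11), and *cd3e*, of all T cells, had 3.99, 4.36 and 3.76 FPKM in Str and 11.3, 18.3 and 31.6 FPKM in Ctrl (-2.23). The Str libraries were close to each other, and the Ctrl libraries were more spread, with Ctrl-3 the highest. The kinases that carry the receptor signal fell as well, with LCK at *lck* and LOC113636643 (-3.20 and -2.76), ZAP-70 (LOC113654642, -1.85), *itk* (-1.67), *themis* (-2.94) and the adaptor LOC113635568 (SH2D1A, -3.15). CD8 beta (LOC113646391) fell by 2.40. The sphingosine 1-phosphate receptor 1 gene given above is also used by lymphocytes to leave tissues.

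The B cell receptor signaling list had 12 of 41 genes called lower and 0 higher, a share of 29.3% beside 5.88% over all genes. All 41 lay below 0, and the median was -1.85 on the log2 scale. The list is not made of B cell genes alone. Its called members include the T cell receptor beta gene, ZAP-70, a CD200 receptor gene (LOC113653164, -3.13) and signal-regulatory protein beta loci of myeloid cells (LOC113634002, -2.32, and LOC113642166, with 1.68, 1.55 and 0.785 FPKM in Str and 3.55, 12.7 and 19.7 FPKM in Ctrl), beside the immunoglobulin delta chain LOC113637527 (-2.34) and protein kinase C beta (LOC113640400, -1.18). The B cell antigen receptor subunit *cd79a* had 3.88, 3.27 and 2.29 FPKM in Str and 2.76, 11.3 and 12.9 FPKM in Ctrl, so that Ctrl-1 lay within the Str range, and was not called (adjusted p = 0.171). Markers of B and plasma cells, with 1 of 30 lower, had a summed level of 64.7, 51.6 and 47.9 FPKM in Str and 48.9, 198 and 182 FPKM in Ctrl, again with Ctrl-1 low. Myeloperoxidase (LOC113661326), of neutrophil granules, had 7.61, 5.74 and 3.78 FPKM in Str and 31.8, 35.8 and 84.2 FPKM in Ctrl (-3.05). The T cell receptor beta gene and the LCK locus LOC113636643 kept the call in each fit, and 11, 9, 15, 1, 10 and 14 of the 17 called immune cell genes lost it with 1 library left out in turn. The B cell receptor list had 2, 4, 1, 10, 2 and 1 genes called in these fits, and its median lay between -2.16 and -1.52.

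Several interferon-induced genes and a pair of TAP2 loci fell too. In innate immune response, 15 of 120 genes were called lower and 2 higher (median log2 fold change -0.67), a share called of 14.2%. The interferon-induced protein 44 loci LOC113646250 (0.371, 0.157 and 0.363 FPKM in Str, 10.8, 2.86 and 7.06 FPKM in Ctrl) and LOC113646249 fell by 4.53 and 2.71. The guanylate-binding protein 1 gene LOC113640678 had 1.76, 1.9 and 1.24 FPKM in Str and 18, 9.63 and 15.5 FPKM in Ctrl (-3.12), and the viral RNA sensor *ifih1* fell by 1.47. Neighbouring loci of these families may share reads. The GO list antigen processing and presentation had 0 of 26 genes called in edgeR (median -0.62), with 5 at an unadjusted p below 0.05 and 5 called by DESeq2. TAP2, which brings peptides to MHC class I, fell at LOC113649020 (8.57, 8.86 and 6.94 FPKM in Str, 20.3, 23.7 and 31.5 FPKM in Ctrl, -1.56) and at LOC113648838 (-2.21), and *nlrc3* fell by 2.16. Complement went the other way in part. Complement and coagulation cascades had 5 of 65 genes called higher and 1 lower (median 0.52), beside 5.88% called over all genes. The locus *c7*, of the pore that lyses cells, had 17, 11.1 and 19.1 FPKM in Str and 0.497, 0.803 and 1.16 FPKM in Ctrl (4.34, SE 0.57, adjusted p = 0.00769). A second C7 locus, LOC113639728, had 2.45, 2.88 and 1.97 FPKM in Str and 8.16, 15.2 and 17 FPKM in Ctrl (-2.37). The matrix protein *svep1* of the complement list rose by 1.21. *c7* kept its call in each fit, and 5, 2, 9, 3, 3 and 9 of the 10 called genes lost it with 1 library left out in turn. The innate list had 5, 6, 1, 13, 2 and 1 genes called lower in these fits.

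Loci with the same product could thus move in opposite directions. Among well expressed single loci with a known product, this held for complement C7, for spermine oxidase, for the triacylglycerol lipase PNPLA2 and for STE20-like kinases. *pnpla2* had 13.6, 23.3 and 18.4 FPKM in Str and 4.25, 7.65 and 7.57 FPKM in Ctrl (log2 fold change 1.59), while LOC113645504 had 1.3, 1.32 and 0.347 FPKM in Str and 6.81, 4.46 and 11.1 FPKM in Ctrl (-2.84). *smox* had 9.87, 11.2 and 9.88 FPKM in Str and 1.45, 1.98 and 1.77 FPKM in Ctrl, while LOC113654137 had 1.59, 2.59 and 1.37 FPKM in Str and 5.95, 6.85 and 7.41 FPKM in Ctrl. For spermine oxidase, *smox* was the higher locus in each Str library and the lower one in each Ctrl library, while the PNPLA2 loci overlapped in Ctrl. Of the STE20-like kinase loci, LOC113661115 rose by 0.85 (24.2, 21 and 26.2 FPKM in Str, 11.2, 15.8 and 14 FPKM in Ctrl) and *slk* and LOC113660915 fell by 1.41 and 2.28. Of the 9 loci, *c7* and *smox* kept their calls in each fit, and 5, 4, 7, 3, 6 and 7 calls were lost with 1 library left out in turn.

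The most abundant genes are given singly, since 10 genes are too few to set against the 5.88% called over all genes. Of the 10 most abundant genes over the 6 libraries, 1 was called, a lactose-binding lectin that is lower in Str (LOC113650563, with 2423, 154 and 467 FPKM in Str and 18986, 12328 and 22864 FPKM in Ctrl), and this call was kept without Str-1 and lost without any of the other 5 libraries. The muscle genes *acta2* (12290, 2495 and 7035 FPKM in Str, 10358, 4326 and 3258 FPKM in Ctrl), desmin (LOC113634430) and transgelin (LOC113640345) varied more between fish than between groups. Beta-2-microglobulin (*b2m*), the light chain of MHC class I, had 1983, 3474 and 2396 FPKM in Str and 5113, 5013 and 5186 FPKM in Ctrl, without overlap and without a call (log2 fold change -0.92, adjusted p = 0.172). Ferritin (*fth1*), *rps2*, *actb* and the Y-box protein LOC113656319 overlapped between the groups, while *rpl23a* lay at 3437, 2858 and 4197 FPKM in Str and 2674, 2449 and 2734 FPKM in Ctrl (adjusted p = 0.451).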

How the data were processed

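Posterior intestine RNA of 3 Str and 3 Ctrl fish was analysed, with 3 recovered fish added to the fit only. The authors cleaned the reads (Cutadapt 1.9) before mapping to the maternal species, *Tachysurus fulvidraco*. The submitters' processing notes add HISAT and StringTie. With the genome build not given in the sources used here, no coordinates are printed. The deposited table gives, per the file headers, FPKM and expected counts for 26163 genes, and 1 read pair was usually worth 4 deposited expected counts, which inflates apparent depth. Totals were 48605412 to 63899568 counts in the 6 libraries. StringTie also split or merged some loci, whose values are uncertain.

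The deposited expected counts, rounded to whole numbers, were tested with edgeR 4.0.16 (R 4.3.3; quasi-likelihood F-test, two-sided, TMM scaling, all 9 libraries, group as the only term) for 17244 genes with at least 1 FPKM in 3 libraries. The threshold was an adjusted p of 0.05 over all tested genes (Benjamini-Hochberg). The alternatives were DESeq2 1.42.0, limma 3.58.1 on log2(FPKM + 1) and log2(FPKM + 0.1), another scaling, other filters, counts divided by 4, Str and Ctrl alone, a replicate block, and each library left out. Scripts were tested on simulated data. Gene lists came from the KEGG and GO columns of the deposited table. No set test was run, so a list's count and median are descriptions.

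The lists, tests and members were chosen with earlier results of these data known. Named genes were the 12 largest rises and 12 largest falls whose groups did not overlap and whose higher group averaged 10 FPKM or more, up to 3 called rises and 3 called falls with the smallest p in a described list, the 10 most abundant genes, and loci of the same product called in opposite directions. Genes already described in detail for this comparison and cortisol or cytokine genes were left out of the first choice. A result that the choice would name is not reported here. Of 239 named genes, not counting those given only as cell type markers, the other 59 were defining members of a list or were chosen after their values were seen.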

Additional observations from a re-analysis of the deposited data

How the results depend on the processing

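None of the 1014 called genes changed direction under any of the 15 alternatives that gave it a value. With at least 5 FPKM in 3 libraries 760 of them had a value, and all had one in the other alternatives. That outcome was largely fixed in advance, because the groups of 1012 of them did not overlap in FPKM. The largest shift of the median over all genes was 0.0834 (without Ctrl-1). DESeq2 called 2540 genes (1128 higher and 1412 lower, 1403 distinct members of the term lists), against 1014 (480 and 534, 571 members) in edgeR. With a replicate block, 623 genes were called (289 higher and 334 lower, 364 list members, 141 of the 206 called genes named here). The replicate numbers of the labels are not said to pair the fish. Deviations from the group means of same-numbered libraries correlated at 0.02, 0.08 and 0.01, and those of differently numbered libraries between -0.19 and 0.18. With 3 libraries per group, these values can neither show nor exclude a shared bag or batch. Leaving out each library in turn gave 115 to 612 called genes, 66 to 290 higher and 39 to 322 lower, 59 to 339 list members and 31 to 115 of the named genes. RLE scaling, limma with either pseudocount, both other filters, counts divided by 4 and the fit of Str and Ctrl alone gave totals between 812 and 1363, each within 1.5 times the main count. The lowest counts came without Str-3 (129) or Ctrl-3 (115).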
